A study of Mus musculus with 21 samples.

Results

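The genes described here are 8 epidermal antimicrobial genes of mouse skin, chosen by symbol from the 64050 gene symbols of the deposited count table: the beta-defensins Defb1, Defb3, Defb4, Defb6 and Defb14, the S100 protein gene S100a7a, the secretory leukocyte protease inhibitor Slpi, and the peptidoglycan recognition protein gene Pglyrp1. They were measured by RNA sequencing in 21 skin libraries from mice with bone marrow transplants, in which allogeneic grafts lead to a chronic graft-versus-host disease with skin fibrosis. All recipients were BALB/c mice irradiated at 8 weeks of age with 700 cGy and transplanted 6 h later. In 4 groups the mice had allogeneic marrow from B10.D2 donors and were given mCAN10, which is directed against IL1RAP (4 libraries), an isotype antibody (mIgG2a LALA-PG, 4 libraries), nintedanib, an inhibitor of growth factor receptor kinases (5 libraries), or water (4 libraries). The last group had syngeneic BALB/c marrow and the same isotype antibody (4 libraries). Treatment started on day 21 and skin was taken in week 7. Antibodies were injected into the peritoneum 2 times a week, at 20 mg/kg and then 10 mg/kg. The nintedanib dose was 50 mg/kg. Its route is uncertain, since the treatment protocol gives a daily dose by mouth and the series' design text gives injection. Donor strain and disease part the allogeneic from the syngeneic groups together and cannot be told apart.

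Beta-defensins are small cationic peptides that epithelia secrete and that kill microbes by disrupting their membranes. Some are made constantly by resting epithelium, and others are induced by microbial products and by cytokines such as IL-1, IL-17, IL-22 and IL-36. They also attract immune cells through chemokine receptors such as Ccr6 and Ccr2. IL1RAP (IL-1 receptor accessory protein) is the shared co-receptor of the IL-1, IL-33 and IL-36 receptors, so an antibody against it bears on several of these signals. Slpi protects tissue from neutrophil elastase and other serine proteases and also has antimicrobial activity. Pglyrp1 is a bactericidal protein stored in neutrophil granules, and S100a7a is the mouse relative of human psoriasin.

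Of the 5 beta-defensins, 4 lie in 1 run on chromosome 8. In the GENCODE M21 annotation (GRCm38), Defb14 is at chr8:19194357-19195212, Defb4 at chr8:19198706-19201545, Defb6 at chr8:19225478-19228209 and Defb3 at chr8:19293360-19295291, all on the plus strand and spanning 101.0 kb. Defb1 lies 2481 kb further along, at chr8:21776599-21795185 (plus strand). Each has 2 exons. S100a7a is at chr3:90654017-90658669 (plus strand), Slpi at chr2:164354070-164389095 (minus strand) and Pglyrp1 at chr7:18871331-18890459 (plus strand). The counts themselves were made on GRCm39, and no coordinates of that build are used.

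Upstream sequence is shown for Defb3 and Defb6, because these neighbours were called in opposite directions in allogeneic skin, as described further on. Each line gives the 250 bases before the RefSeq transcription start (GRCm38.p6, plus strand, chr8:19293111-19293360 for Defb3 and chr8:19225228-19225477 for Defb6), and capitals mark motif matches.
Defb3: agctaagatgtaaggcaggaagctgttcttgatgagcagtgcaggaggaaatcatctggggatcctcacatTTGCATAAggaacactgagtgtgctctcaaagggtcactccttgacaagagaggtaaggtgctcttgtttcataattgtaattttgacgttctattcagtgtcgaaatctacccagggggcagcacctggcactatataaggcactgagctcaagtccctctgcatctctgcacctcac
Defb6: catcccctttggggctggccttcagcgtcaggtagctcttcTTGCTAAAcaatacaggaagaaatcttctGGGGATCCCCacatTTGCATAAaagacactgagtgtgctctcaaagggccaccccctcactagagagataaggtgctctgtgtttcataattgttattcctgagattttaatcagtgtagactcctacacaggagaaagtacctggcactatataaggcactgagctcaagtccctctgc
In a global alignment of these stretches, 190 of 225 aligned positions were identical (84.4%), and the longest shared run was 40 bases. A C/EBP motif (TTGCNNAA, both strands) was found in both. Counted back from the start, its first base was at position -179 in Defb3, and at -209 and -166 in Defb6. An NF-kB motif (both strands) was found only in the Defb6 window, at -180. Neither window held an AP-1 (TGANTCA) or STAT (TTCNNNGAA) motif. Of the 32841 windows of this length in the RefSeq table, 9.57% held the C/EBP, 7.25% the NF-kB, 6.75% the AP-1 and 7.02% the STAT motif. Windows were also found for S100a7a, Slpi and Pglyrp1, which makes 5 of the 8 genes. They held 1 match each: a STAT motif at -169 in S100a7a, a C/EBP motif at -241 in Slpi and an NF-kB motif at -93 in Pglyrp1. The windows of these genes lie inside the GENCODE gene spans given above. They are thus upstream of the RefSeq start only. For S100a7a the bases checked after that start were found in no GENCODE transcript of the gene.

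The transcripts are less alike than the upstream stretches of Defb3 and Defb6. Defb3 and Defb6 transcripts were identical at 74.1% of 270 aligned positions, with a longest shared run of 12 bases. Defb4 is the closest to both, with 82.7% identity to Defb6 (longest shared run 26 bases) and 77.1% to Defb3 (33 bases). Only a read no longer than such a run would match both genes in full. Whether any read was counted for the wrong gene was not tested.

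Total counts per library ranged from 17130264 to 32899212. The anti-IL1RAP, allogeneic isotype and syngeneic isotype libraries (12) belong to one counting run, and the nintedanib and water libraries (9) to another that used partly different gene names, so groups were tested only within a run. Krt5 and Krt14, which define basal keratinocytes, were high in every library, at 2681 CPM or more for Krt5 and 1208 CPM or more for Krt14. Skeletal muscle genes took 0.438% to 5.04% of the counts in 20 libraries and 0.00154% in allogeneic isotype 1. The Y-linked genes Ddx3y, Eif2s3y, Kdm5d and Uty summed to 0 to 15.2 CPM with anti-IL1RAP, 0 CPM in allogeneic isotype and 2.73 to 6.61 CPM in syngeneic isotype skin, and to 0 to 27.9 CPM with nintedanib and 0 CPM with water. Their part in the results was not tested. Where a gene is lower in whole skin, fewer cells of a type and less RNA per cell cannot be told apart.

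Per kilobase of exon, Defb6 was the most abundant of the 8 genes in 3 groups. It averaged 396 ± 91.9 CPM per kb in anti-IL1RAP, 362 ± 235 in syngeneic isotype (SD, n = 4 each) and 122 ± 32.4 in nintedanib skin (n = 5). The next gene was Defb1 with anti-IL1RAP, at 20.7 ± 3.50 CPM per kb, and with nintedanib, at 18.4 ± 6.47. In syngeneic skin the next was Defb14, at 30.0 ± 19.4 CPM per kb, followed by Defb1 at 15.2 ± 3.63, and these neighbours did not differ beyond their spread. In the allogeneic control groups no gene led beyond the spread. There the means were 52.7 ± 24.5 CPM per kb for Defb14, 47.9 ± 79.1 for Defb6 and 35.1 ± 10.9 for Defb1 with isotype, and 17.6 ± 9.68 for Defb1, 14.5 ± 12.7 for Defb6 and 7.15 ± 2.33 for Defb14 with water. Slpi, Defb3, Pglyrp1, S100a7a and Defb4 averaged 10.3 CPM per kb or less in every group.

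**Figure D1:**
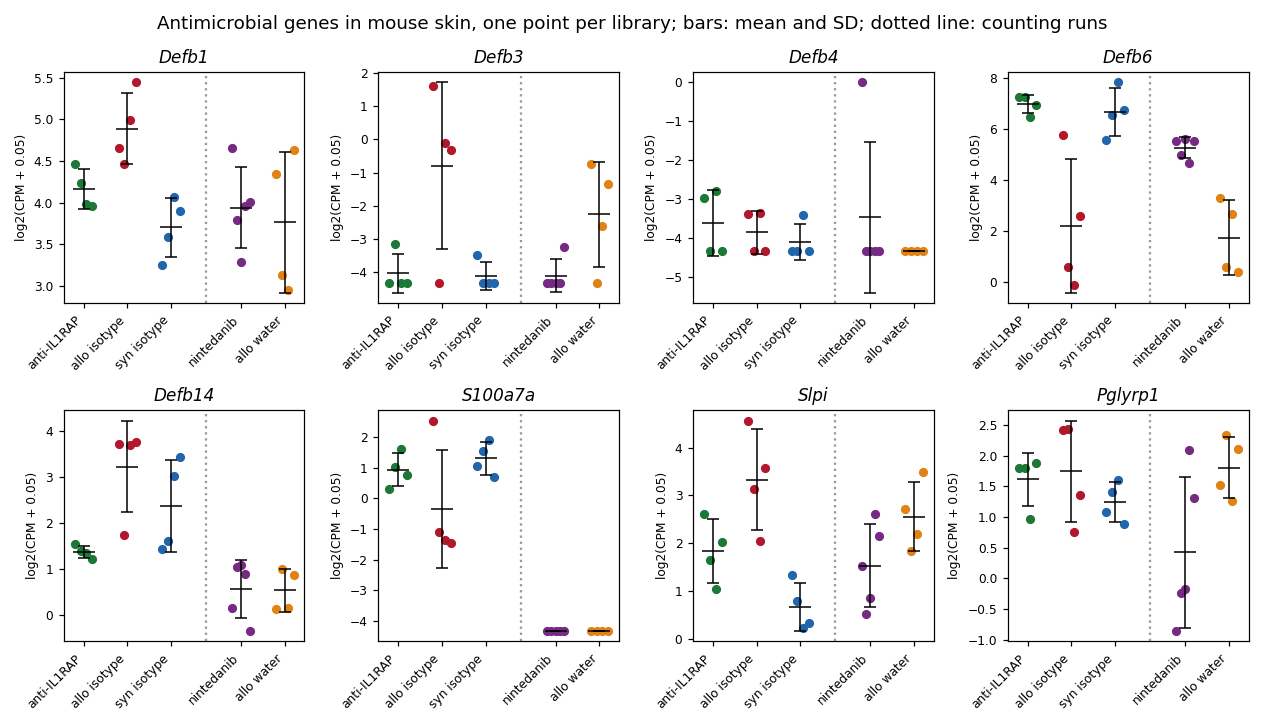
Level of each of the 8 genes in each of the 21 libraries, as log2(CPM + 0.05); points are libraries, bars the mean and SD of a group, and the dotted line parts the counting runs. Defb6 was lower in most allogeneic isotype and all allogeneic water libraries than in the other groups, and S100a7a had no reads in the 9 libraries right of the line.

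In a fit over all 21 libraries, 7 of the 8 genes passed the filter on low counts, and Defb4 did not. Allogeneic isotype skin had higher Defb1, Defb3 and Slpi and lower Defb6 than syngeneic isotype skin, so 4 of the 7 were called changed at an adjusted p under 0.05 (edgeR's quasi-likelihood test, Benjamini-Hochberg over all 20462 genes tested). Over all genes, 22.6% were called in this comparison, 13.8% higher and 8.8% lower. With anti-IL1RAP, 3 of the 7 were called against allogeneic isotype, Defb6 higher and Defb3 and Defb14 lower, where 10.8% of all genes were called (5.58% higher and 5.19% lower). Defb3 passed the filter through its reads in the allogeneic isotype libraries, and without it the counts are 3 of 6 and 2 of 6. Against syngeneic isotype none of the 7 was called in anti-IL1RAP skin, where 0.811% of all genes were called (166 genes, 0.777% higher and 0.0342% lower), and at an unadjusted p under 0.05 the count over all genes was 2801. With only these 2 groups in the fit 1057 genes were called higher and 1074 lower, and without syngeneic isotype 4 the fit over the other libraries called 31. With nintedanib, 1 of 6 genes with reads in that run, Defb6, was called higher than with water, where 9.31% of all genes were called (5.56% higher and 3.76% lower). That share is over all 20462 genes tested, which include symbols without counts in that run. With only symbols counted in both runs, 1962 of 17099 were called. Within that run alone 94 genes were called, and without nintedanib 1 the split was 577 higher and 658 lower. Anti-IL1RAP and syngeneic isotype are each compared with the same allogeneic isotype libraries, so these comparisons are not independent.

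**Figure D2:**
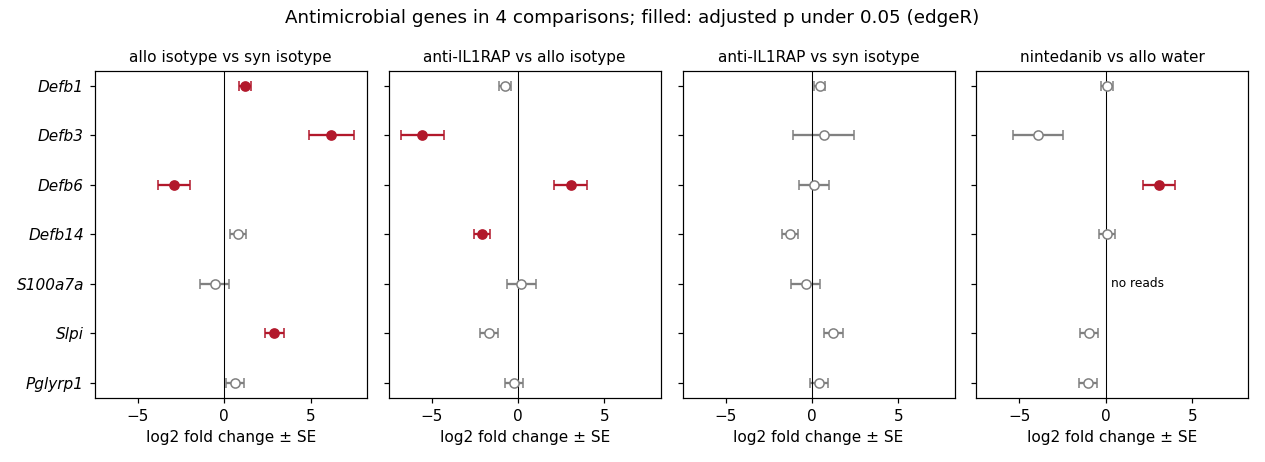
Log2 fold change with its SE of the 7 genes that passed the filter, in 4 comparisons (edgeR); filled points have an adjusted p under 0.05. Defb6 lies left of zero for allogeneic against syngeneic isotype and right of zero for both treatments against their controls.

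Defb6, which in mice is also known from skeletal muscle, had 152, 149, 88.2 and 122 CPM in the anti-IL1RAP libraries 1 to 4. The allogeneic isotype libraries had 53.7, 1.46, 0.871 and 5.94 CPM, and the syngeneic isotype libraries 46.4, 91.7, 224 and 105 CPM. Every anti-IL1RAP library was thus above every allogeneic isotype library, while allogeneic isotype 1 lay within the syngeneic range and the other 3 far below it. The log2 fold change was 3.04 ± 0.94 (SE) for anti-IL1RAP against allogeneic isotype, with an adjusted p of 0.0432 (edgeR). It was -2.91 ± 0.93 for allogeneic against syngeneic isotype, with an adjusted p of 0.0301. Anti-IL1RAP and syngeneic isotype skin differed by 0.13 ± 0.86 on the log2 scale (adjusted p = 1).

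Nintedanib skin had 46.2, 31.2, 48.2, 25.1 and 46.0 CPM of Defb6, against 9.77, 1.43, 6.23 and 1.25 CPM in allogeneic water skin. The groups did not overlap. The log2 fold change was 3.08 ± 0.93, with an adjusted p of 0.0449 (edgeR). The anti-IL1RAP effect minus the nintedanib effect was -0.04 ± 1.18 on the log2 scale (adjusted p = 1.00, edgeR). With this SE, the test does not show that the treatments act alike.

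The Defb6 calls against the allogeneic groups lay close to the threshold. They were often lost when a library was left out, while the direction of the difference held. Without allogeneic isotype 1 the log2 fold change was 5.56 for anti-IL1RAP against allogeneic isotype (adjusted p = 0.000671) and -5.43 for allogeneic against syngeneic isotype (adjusted p = 0.000348). The anti-IL1RAP call held in this 1 of 8 fits that left a library out, and in the other 7 the log2 fold change was 2.63 to 3.15. The syngeneic comparison lost its call without allogeneic isotype 2 or 4 or syngeneic isotype 3 (adjusted p 0.0696, 0.0867 and 0.0904). The nintedanib call was lost without nintedanib 1 or 3 or water 2, 3 or 4, with a log2 fold change of 2.76 to 3.72 over all 9 such fits. Within its own counting run its adjusted p was 0.0557 at the same fold change, and 0.579% of all genes were called there. For anti-IL1RAP against allogeneic isotype the adjusted p was 0.0647 within the counting run, 0.115 with only those groups and 0.0548 without the filter on low counts, at log2 fold changes of 3.01 to 3.05. Allogeneic against syngeneic isotype had 0.106 with only those groups.

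**Figure D3:**
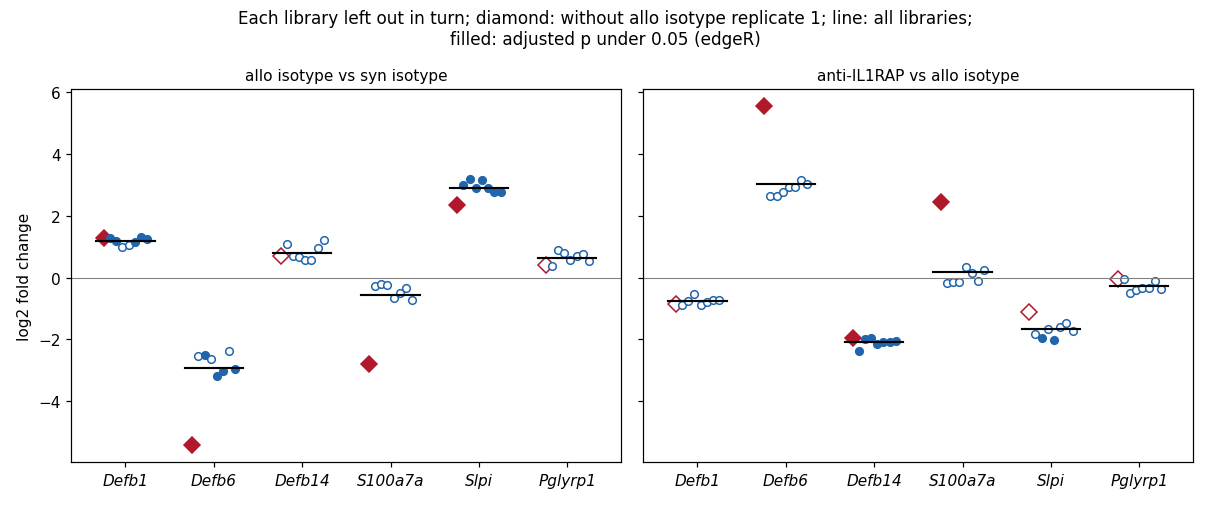
Log2 fold change of 6 genes when each library is left out in turn, for allogeneic against syngeneic isotype (left) and anti-IL1RAP against allogeneic isotype (right); lines are the values with all libraries, diamonds the fit without allogeneic isotype 1, and filled symbols have an adjusted p under 0.05 (edgeR). Defb6 and S100a7a move farthest from zero without that library, and Defb14 stays called in all 8 fits on the right.

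Allogeneic isotype 1, the library with 53.7 CPM of Defb6, had the lowest muscle share (0.00154%, against 0.967%, 4.31% and 1.88% in allogeneic isotype 2 to 4) and the highest sum over 12 hair follicle genes (622 CPM, against 13.7 to 29.4 CPM). With the muscle share as a covariate the Defb6 log2 fold change was 5.11 for anti-IL1RAP against allogeneic isotype and -5.60 for allogeneic against syngeneic isotype. Allogeneic isotype 1 lies far from all other libraries in this covariate, so this fit is not independent of the fit without that library. Sebaceous gland genes (8 genes, among them the lipid desaturase Scd3) summed to 1107 to 1236 CPM with anti-IL1RAP, 322 to 846 CPM in allogeneic isotype and 779 to 1252 CPM in syngeneic isotype skin. In the other run they summed to 416 to 1826 CPM with nintedanib and 370 to 495 CPM with water. Of these 8 genes, 4 were called higher with anti-IL1RAP than in allogeneic isotype skin, 4 lower in allogeneic than in syngeneic isotype skin, and 5 higher with nintedanib than with water (edgeR). Over all genes the shares in these comparisons were 5.58% higher, 8.8% lower and 5.56% higher. The share of sebaceous glands in the Defb6 differences was not tested. The hair follicle sum was 58659 CPM in nintedanib 1 and 22252 CPM in nintedanib 3, and 19.1 to 29.2 CPM in the other 3 nintedanib libraries. Those 3 libraries had Defb6 levels of 25.1 to 46.0 CPM, all above the water libraries. The part of hair follicles in the Defb6 differences was not tested.

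**Figure D4:**
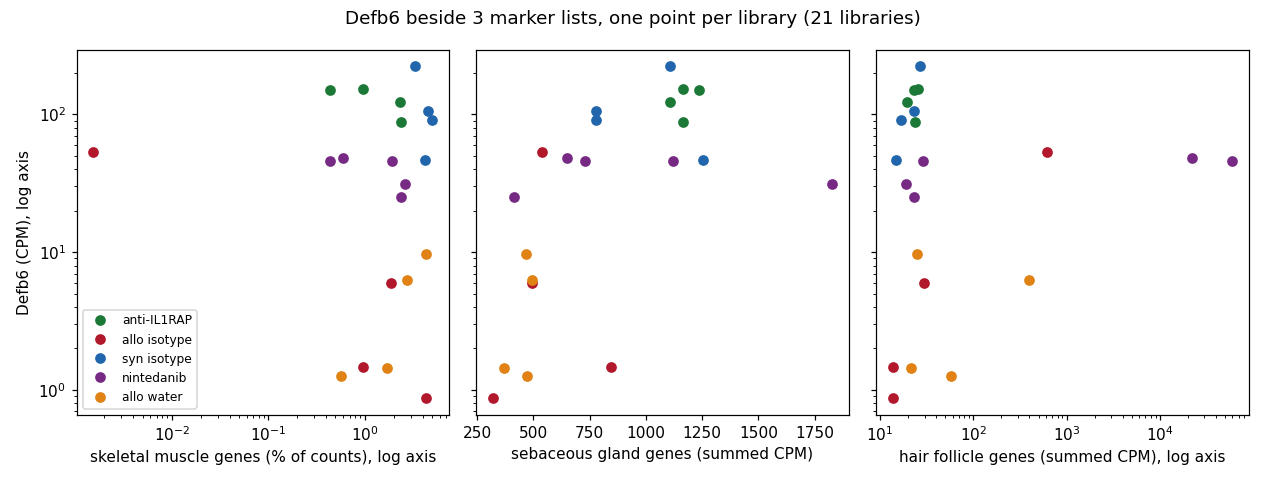
Defb6 level of each library (CPM, log axis) against the share of counts from skeletal muscle genes, and the summed CPM of sebaceous gland genes and hair follicle genes. All water libraries and 3 of 4 allogeneic isotype libraries lie below 10 CPM of Defb6, and allogeneic isotype 1, at 53.7 CPM, has the lowest muscle share.

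Defb6 was also set against the basal keratins, as a description. Skin of anti-IL1RAP mice held 15.7 ± 1.91 Defb6 reads per 1000 reads of Krt5 and Krt14, allogeneic isotype skin 1.10 ± 1.82 and syngeneic isotype skin 14.1 ± 5.46 (SD, n = 4 each). Nintedanib skin held 6.80 ± 3.56 (n = 5), against 0.434 ± 0.434 in water skin (n = 4). Krt14 itself was called lower with both treatments and higher in allogeneic than syngeneic skin, with log2 fold changes of -1.28 ± 0.37 for anti-IL1RAP, -1.36 ± 0.35 for nintedanib and 1.50 ± 0.38 for allogeneic against syngeneic isotype (edgeR, adjusted p 0.0339, 0.0214 and 0.00798). Krt5 was called in none of these comparisons.

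Defb14 has a human relative that binds the chemokine receptors CCR6 and CCR2. The anti-IL1RAP libraries had 2.86, 2.56, 2.49 and 2.29 CPM, and the allogeneic isotype libraries 13.2, 3.28, 12.9 and 13.6 CPM. The groups did not overlap, although allogeneic isotype 2 lay close to the treated libraries. The log2 fold change was -2.07 ± 0.47 with an adjusted p of 0.00863 (edgeR). It stayed called in all 8 fits that left a library out (-2.38 to -1.94).

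Syngeneic isotype skin had 2.65, 3.00, 8.10 and 10.7 CPM of Defb14. Libraries 1 and 2 lay at the anti-IL1RAP level and 3 and 4 near the allogeneic isotype level. Defb14 was not called in allogeneic against syngeneic isotype (0.81 ± 0.45, adjusted p = 0.217) or in anti-IL1RAP against syngeneic isotype (-1.26 ± 0.46, adjusted p = 0.234). In the other run it was at 1.06, 2.01, 2.08, 1.81 and 0.737 CPM with nintedanib and 1.04, 1.96, 1.07 and 1.77 CPM with water, groups that overlap (0.08 ± 0.46, adjusted p = 1). The anti-IL1RAP effect minus the nintedanib effect was -2.15 ± 0.66 for Defb14, which had an unadjusted p of 0.00408 and an adjusted p of 0.205 (edgeR). In that contrast 0 of 20462 genes were called (0.0%), 2495 had an unadjusted p under 0.05 and DESeq2 called 364.

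Defb3, an inducible beta-defensin, was close to absent outside the allogeneic control groups. It had 65, 0, 18 and 12 reads in the allogeneic isotype libraries (2.98, 0, 0.871 and 0.750 CPM), against 1 read in all 4 syngeneic isotype libraries together. The anti-IL1RAP libraries held 2 reads in all, both in library 2. By depth the ratio was 0.0163 for anti-IL1RAP over allogeneic isotype (95% interval 0.00195 to 0.0606) and 125 for allogeneic over syngeneic isotype (21.8 to 4969), intervals that cover counting error only. Both differences were called (log2 fold changes -5.54 ± 1.24 and 6.21 ± 1.33, adjusted p 0.00773 and 0.00278, edgeR). The groups overlapped because allogeneic isotype 2 had no read.

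In the other run nintedanib skin had 1 read of Defb3 in 5 libraries, against 9, 0, 2 and 6 reads in the water libraries. The ratio by depth was 0.0438 (95% interval 0.00105 to 0.279), and the fit did not call it (-3.94 ± 1.44, adjusted p = 0.0889). Without allogeneic isotype 1 or 3 the gene no longer passed the filter on low counts, so its isotype calls could not be refitted there. The same holds for the fits of the compared groups or of the counting run alone. With no filter both isotype differences were called (adjusted p 0.0134 for anti-IL1RAP against allogeneic isotype and 0.0049 for allogeneic against syngeneic isotype).

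Defb1, the constantly made epithelial beta-defensin, had 25.1, 22.0, 31.8 and 43.4 CPM in allogeneic isotype and 9.52, 12.01, 16.7 and 14.9 CPM in syngeneic isotype skin. Every allogeneic isotype library was above every syngeneic one. The log2 fold change was 1.20 ± 0.34 (adjusted p = 0.0169, edgeR), and the call was lost without allogeneic isotype 4 or syngeneic isotype 1 (adjusted p 0.0649 and 0.0572). The anti-IL1RAP libraries had 22.1, 18.8, 15.8 and 15.5 CPM. They overlapped with both isotype groups and were not called against either (-0.76 ± 0.34, adjusted p = 0.172, against allogeneic isotype, and 0.44 ± 0.34, adjusted p = 0.631, against syngeneic isotype). Against allogeneic isotype Defb1 was called lower in 1 of 9 other settings. This was the fit within the counting run (-0.78, adjusted p = 0.0325, edgeR), where 18.8% of all genes were called.

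Per 1000 reads of Krt5 and Krt14, Defb1 was at 2.24 ± 0.262 with anti-IL1RAP, 2.24 ± 0.537 in allogeneic isotype and 1.73 ± 0.162 in syngeneic isotype skin. With nintedanib Defb1 had 25.1, 13.8, 9.74, 15.5 and 16.0 CPM, against 20.3, 8.75, 7.69 and 24.7 CPM with water. These ranges overlap almost fully, with a log2 fold change of 0.06 ± 0.32 (adjusted p = 1).

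Defb4, an inducible beta-defensin of epithelia, had 0 to 2 reads per library in the first run. With nintedanib it had 17 reads in library 1 and none in the other 4, and it had none in the 4 water libraries, where 3 reads over the group would be 0.0425 CPM. It was too low for a test. The hair follicle sum was highest in nintedanib 1 (58659 CPM), while nintedanib 3 (22252 CPM) had no Defb4 read. The part of hair follicles was not tested. Of 17 further symbols beginning with Defb that had any reads, none passed the filter or reached 1 CPM, and the highest had 45 reads over all libraries. For Defa, 1 symbol had 2 reads.

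S100a7a had 1.20, 1.99, 3.01 and 1.65 CPM with anti-IL1RAP. Allogeneic isotype skin had 5.73, 0.416, 0.339 and 0.313 CPM, and syngeneic isotype skin 2.03, 2.87, 3.67 and 1.57 CPM. Allogeneic isotype 1 was the highest of the 12 libraries and the other 3 of its group were the lowest. With all libraries no difference was called (0.19 ± 0.83 for anti-IL1RAP against allogeneic isotype, adjusted p = 0.957, and -0.56 ± 0.83 for allogeneic against syngeneic isotype, adjusted p = 0.694, edgeR). Without allogeneic isotype 1 both were called, at 2.44 (adjusted p = 0.00752) and -2.81 (adjusted p = 0.0021). Both were also called with the muscle share as a covariate (2.15 and -3.07, adjusted p 0.0184 and 0.00453). That share was 0.00154% in allogeneic isotype 1 and 0.438% to 5.04% in all other libraries. The covariate fit is therefore not independent of leaving that library out.

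The 9 nintedanib and water libraries had no S100a7a read. None of its 7 RefSeq synonyms is a symbol of the table, so a true absence and a gene missing from the annotation of that run cannot be told apart.

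Slpi had the lowest adjusted p of the 8 genes in allogeneic against syngeneic isotype skin. Allogeneic isotype libraries had 23.6, 8.79, 4.06 and 11.9 CPM, and syngeneic isotype libraries 2.46, 1.67, 1.12 and 1.21 CPM, with no overlap. The log2 fold change was 2.90 ± 0.56 (adjusted p = 0.00138, edgeR) and the call held in all 8 fits that left a library out (2.35 to 3.19).

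With anti-IL1RAP Slpi had 6.10, 3.10, 2.01 and 4.03 CPM, between the isotype groups and overlapping with both. Against allogeneic isotype the log2 fold change was -1.67 ± 0.53, with an adjusted p of 0.0513 that just missed the threshold (edgeR). Its adjusted p was 0.0478 with another scaling, 0.0123 with DESeq2 and 0.0358 within the counting run (where 18.8% of all genes were called). Over the 9 other settings it ranged from 0.00387 to 0.119, and 6 called the gene. Slpi was called in only 2 of the 8 fits that left a library out (-2.01 to -1.11, adjusted p 0.0253 to 0.19, edgeR). Against syngeneic isotype it was not called (1.24 ± 0.54, adjusted p = 0.319). Nintedanib skin had 2.84, 1.38, 1.75, 6.02 and 4.37 CPM, against 6.53, 3.50, 4.55 and 11.2 CPM in water skin, which overlap (-0.98 ± 0.50, adjusted p = 0.229).

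Pglyrp1 was called in no comparison with all libraries. It had 3.43, 3.45, 1.91 and 3.62 CPM with anti-IL1RAP, 5.32, 5.36, 1.64 and 2.50 CPM in allogeneic isotype and 2.07, 2.62, 3.00 and 1.80 CPM in syngeneic isotype skin. The log2 fold changes were -0.26 ± 0.52 for anti-IL1RAP against allogeneic isotype (adjusted p = 0.841) and 0.65 ± 0.52 for allogeneic against syngeneic isotype (adjusted p = 0.413, edgeR). Nintedanib skin had 0.501, 0.795, 0.831, 4.21 and 2.44 CPM, against 2.81, 4.99, 2.36 and 4.28 CPM in water skin (-1.04 ± 0.50, adjusted p = 0.199). Nintedanib 1 to 3 lay below every water library, and without nintedanib 4 the difference was called (-1.69, adjusted p = 0.0235).

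Other neutrophil genes are given beside Pglyrp1 because its product is stored in neutrophil granules. The 12 listed genes summed to 32.4 to 61.7 CPM with anti-IL1RAP, 138 to 259 CPM in allogeneic isotype and 24.8 to 67.5 CPM in syngeneic isotype skin, and to 18.4 to 101 CPM with nintedanib and 120 to 430 CPM with water. Of the 9 that passed the filter, 6 were called higher in allogeneic than in syngeneic isotype skin, 4 lower with anti-IL1RAP and 3 lower with nintedanib than in the allogeneic controls. Over all genes the shares in these comparisons were 13.8% higher, 5.19% lower and 3.76% lower. The part of the neutrophil genes in the Pglyrp1 and Slpi values was not tested.

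Among 25 other antimicrobial genes of skin, 22 passed the filter. In allogeneic isotype skin 11 were called higher and 2 lower than in syngeneic isotype skin, with a median log2 fold change of 1.04 against 0 over all genes. Over all genes 13.8% were called higher and 8.8% lower. The lowest p-values belonged to the peptidoglycan recognition genes Pglyrp3 (2.40 ± 0.37) and Pglyrp2 (2.50 ± 0.49), to Chga, whose product is cut into antimicrobial peptides (3.39 ± 0.62), and to the WAP domain gene Wfdc12 (5.84 ± 1.10). With anti-IL1RAP 1 was called higher and 5 lower than in allogeneic isotype skin (median -0.95). Over all genes 5.58% were called higher and 5.19% lower there. Wfdc12 averaged 0.621 ± 0.375 CPM with anti-IL1RAP and 24.2 ± 11.6 CPM in allogeneic isotype skin (SD, n = 4 each, -5.30 ± 1.07, adjusted p = 0.00424, edgeR). Wfdc5, another WAP domain gene, and Chga were also lower (-1.27 ± 0.29 and -2.45 ± 0.59). The one gene called higher was Hamp, which encodes the peptide hepcidin. It had 87 reads in the anti-IL1RAP libraries and none in the allogeneic isotype libraries, so it was at least 22.5-fold higher against a floor of 3 reads over that group. With nintedanib, where 5.56% of all genes were called higher and 3.76% lower than with water, none was higher and 7 were lower (median -1.18). Among them were Adm, the antimicrobial hormone adrenomedullin (-1.37 ± 0.30), the nitric oxide synthase Nos2 (-3.17 ± 0.75), Chga (-2.19 ± 0.54) and Pglyrp3 (-1.21 ± 0.33). Nos2 averaged 7.06 ± 2.85 CPM with anti-IL1RAP and 25.9 ± 13.8 CPM in allogeneic isotype skin. Adm averaged 6.96 ± 2.45 and 7.73 ± 2.27 CPM in these groups. None of the 22 was called for nintedanib within its own counting run, and 3 were without nintedanib 1 or 3.

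Of 29 listed inducers and regulators of these genes, 25 passed the filter. Of these, 16 were called higher and none lower in allogeneic than in syngeneic isotype skin (median 0.72), none higher and 9 lower with anti-IL1RAP than in allogeneic isotype skin (median -0.63), and none higher and 7 lower with nintedanib than with water (median -0.69). Over all genes the shares in these comparisons were 13.8% higher, 5.19% lower and 3.76% lower. The IL-36 cytokine gene Il36a averaged 1.67 ± 0.986 CPM with anti-IL1RAP, 30.9 ± 16.4 CPM in allogeneic isotype and 0.603 ± 0.601 CPM in syngeneic isotype skin (SD, n = 4 each). Its log2 fold change was -4.20 ± 0.72 for anti-IL1RAP (adjusted p = 0.00157) and 5.64 ± 0.78 for allogeneic against syngeneic isotype (adjusted p = 0.000114, edgeR). Il36b, another IL-36 cytokine, fell by 3.13 ± 0.51 and the IL-36 receptor gene Il1rl2 by 0.68 ± 0.14 on the log2 scale with anti-IL1RAP. Stat3, the transcription factor downstream of IL-22, fell by 0.77 ± 0.16 with anti-IL1RAP and by 0.91 ± 0.15 with nintedanib. Cebpb, which encodes a factor that binds C/EBP motifs, was higher in allogeneic isotype skin (1.09 ± 0.15) and lower with nintedanib (-0.78 ± 0.14). Myd88, the adaptor of IL-1 family and Toll-like receptors, was higher in allogeneic isotype skin (1.23 ± 0.15) and lower with nintedanib (-0.91 ± 0.14), as was the bacterial sensor Nod2 with nintedanib (-1.85 ± 0.33). The nintedanib calls among these genes depended on the fit, with none within its own counting run, 15 lower and 1 higher by DESeq2, 4 without water 4 and 15 without nintedanib 5. Il17a had 0 reads in 4 of the 5 groups. Il22 had no counts in any library, and whether its symbol is in the count table was not checked. A true absence of Il22 and a gene missing from the annotation cannot be told apart.

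Receptors and partners of the peptides numbered 12, all tested. Of these, 3 were called higher in allogeneic than in syngeneic isotype skin (13.8% of all genes were called higher): Ccr2, a chemokine receptor for beta-defensins (1.51 ± 0.47), Tlr1 (1.52 ± 0.49) and the signalling adaptor Tyrobp (1.28 ± 0.45). None of the 12 was called without allogeneic isotype 1 or 2, without syngeneic isotype 1, 3 or 4, or with the muscle share as a covariate. With anti-IL1RAP only the Langerhans cell lectin Cd207 was called, higher than in allogeneic isotype skin (2.52 ± 0.62). The medians were 0.76 for allogeneic against syngeneic isotype, -0.09 for anti-IL1RAP against allogeneic isotype and -0.23 for nintedanib against water. With nintedanib none of the 12 was called in the fit over all libraries (edgeR), while 1 was called with only the symbols counted in both runs and 3 without nintedanib 4.

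Of 11 genes listed as proteases of skin and targets of Slpi, 5 were called higher and none lower in allogeneic against syngeneic isotype skin (median 0.70). Over all genes 13.8% were called higher there, 5.19% lower with anti-IL1RAP and 3.76% lower with nintedanib. With anti-IL1RAP none was higher and 3 were lower than in allogeneic isotype skin (median -0.05): the kallikreins Klk6 (-4.13 ± 0.73), Klk7 (-1.46 ± 0.29) and Klk5 (-1.32 ± 0.35), which cut proteins of the outer epidermis. With nintedanib Klk6 was lower than with water (-2.30 ± 0.62) and no other of the 11 was called (median -0.53). That call was lost within the counting run and without nintedanib 3 or water 1 or 4, and RLE scaling called 2 genes. In anti-IL1RAP against syngeneic isotype skin no gene of these 4 lists was called in the fit over all libraries (edgeR), where 0.811% of all genes were called. With only those groups 6 antimicrobial genes, 6 inducers, 3 receptors and 1 protease were called. Over all genes that fit called 2131 of 18953. The medians in the fit over all libraries were 0.58 for the antimicrobial genes, 0.29 for the inducers, 0.62 for the receptors and 0.30 for the proteases, against 0.03 over all genes. Among epidermal markers, 5 of 6 genes of activated keratinocytes and 6 of 8 tested genes of differentiated keratinocytes were called higher in allogeneic than in syngeneic isotype skin. With anti-IL1RAP 5 and 4 of them were called lower than in allogeneic isotype skin, and with nintedanib 4 and 2 lower than with water. The shares over all genes are those given beside the proteases. The part of these epidermal markers in the values of the antimicrobial genes was not tested. The damage keratins Krt6a, Krt6b and Krt16 were lower with both treatments. Krt16 averaged 51.4 ± 21.0 CPM with anti-IL1RAP, 2386 ± 1118 CPM in allogeneic isotype and 20.3 ± 4.09 CPM in syngeneic isotype skin (SD, n = 4 each).

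The genes whose profile over the libraries was most like each member differed between members. Likeness was the root mean square difference of log2 CPM after each gene was centred within its counting run, over 21 libraries and 15420 candidate genes. The nearest gene was S100a9, a neutrophil and keratinocyte gene, for Defb3 (0.675 log2 units), Gpr35 for Slpi (0.546), Mpzl3 for Defb1 (0.340) and Slc15a3 for Pglyrp1 (0.370). Defb6 was nearest to Egfl6 (0.749) and Gsdma3 (0.790), and Defb14 to Ly6d (0.590). S100a7a was nearest to Lgr6 (0.588), with its 9 libraries of the second run all at 0.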

How the data were processed

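The authors deposited unnormalized read counts per gene symbol. The submitters' processing notes name FastQC, Trimmomatic, STAR, featureCounts and GRCm39, while versions and annotation were not given in the sources used here. Per the labels' protocols, poly-A RNA (1 μg) from skin 3 mm in diameter went into unstranded libraries. Only Slpi overlaps another gene's exon (1 base, Mir7678). The 8 genes and all lists were chosen with earlier results of these data known. Whether each replicate is its own animal is not stated in the labels, and p-values then measure only the spread between these samples, which may be technical.

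Differences were tested with edgeR 4.0.16 under R 4.3.3 (filterByExpr with a minimum count of 10, TMM scaling, glmQLFit and glmQLFTest). All 21 libraries entered 1 fit with a mean per group and 1 shared estimate of the spread, which may understate p-values for a more variable group. The threshold for a call was an adjusted p of 0.05 (Benjamini-Hochberg). CPM values are TMM-scaled, with mean ± SD over libraries. Of 64050 symbols, 21830 had counts in both counting runs, 12094 in the first alone and 6185 in the second alone. Named genes were the 8 members, up to 4 called genes with the lowest p per list and comparison, and 5 epidermal keratins. For each member the 3 nearest genes by likeness were found, and 1 or 2 of them are named. Floors are 3 reads over a group and ratio intervals are exact at 95%, and both cover counting error only. Gene lengths come from GENCODE M21, alignments from Biopython 1.88 and upstream sequences from RefSeq (GRCm38.p6), of which only the 250 bases before the start were used. Scripts were tested on simulated counts. Alternatives were RLE scaling, no filter, DESeq2 1.42.0, only the groups or the run compared, only symbols with counts in both runs, the muscle share or a note on 2 sequencing lanes as a covariate, only the libraries with or without that note, 2 replicate blocks and each library left out. Plots were made in matplotlib 3.10.9.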

Additional observations from a re-analysis of the deposited data

Results flagged for a closer look

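A single library stood far from the rest of its group in 9 of the 37 combinations of gene and group that could be checked. In 5 of these a single library held all the reads of its group, which meets the criterion whatever their number. Among the other 32 combinations 4 were flagged. The criterion was applied to CPM and not to log2 values. It flags about 1 in 20 only for independent, normally distributed values, which was not tested for CPM. Of the 4 flagged, 3 are the lowest or highest library of the allogeneic isotype group. Defb6 was at 53.7 CPM in allogeneic isotype 1, with the next library at 5.94 CPM. S100a7a was at 5.73 CPM in the same library, with the next at 0.416 CPM. Defb14 was at 3.28 CPM in allogeneic isotype 2, with the next at 12.9 CPM. Among anti-IL1RAP libraries, Pglyrp1 was at 1.91 CPM in replicate 3, with the next at 3.43 CPM. The other 5 are the combinations with reads in a single library. Defb4 was at 0.947 CPM in nintedanib 1, from 17 reads, with no read in the other nintedanib libraries, and at 0.0448 CPM (1 read) in syngeneic isotype 3. Defb3 was at 0.0633 CPM (2 reads) in anti-IL1RAP 2, at 0.0567 CPM (1 read) in nintedanib 5 and at 0.039 CPM (1 read) in syngeneic isotype 1, with no read in the rest of each group.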

How the results depend on the processing

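No called result changed direction in any setting run. Of the 7 genes tested, 4 were called in allogeneic against syngeneic isotype skin (4621 of 20462 over all genes). With only those groups in the fit 2 of 6 were called (4752 of 18711), as Defb3 did not pass the filter there. In anti-IL1RAP against allogeneic isotype 3 of 7 were called (2204 of 20462 over all genes), and 1 of 6 with only those groups (2956 of 18684). In nintedanib against water 1 was called (Defb6), and 0 without the filter, with the lane note as a covariate, with only those groups or that run, or with only the libraries with or without the note. Leaving out each library gave 2 to 4, 2 to 3 and 0 to 2 called in these comparisons, and 0 to 0 in anti-IL1RAP against syngeneic isotype and in the contrast of the treatment effects. By the title numbers, the deviations of same-numbered libraries had correlations of 0.26, -0.03, 0.35 and 0.05 for anti-IL1RAP and allogeneic isotype, -0.04, 0.06, -0.23 and 0.20 for allogeneic and syngeneic isotype, -0.17 to -0.10 for anti-IL1RAP and syngeneic isotype and -0.19 to 0.04 for nintedanib and water. By the description numbers they were 0.26, -0.35 and 0.27 for anti-IL1RAP and allogeneic isotype. In no comparison did every pair exceed 0.1, so the numbers were not taken to pair the libraries. With the title number as a replicate block, Slpi was called in anti-IL1RAP against syngeneic isotype (1 gene, against 0 without it), and Defb3 was not called in anti-IL1RAP against allogeneic isotype (adjusted p = 0.056), where Slpi was (0.00387, and 0.0298 with the description number). With the title and description blocks the 1 gene called for nintedanib was Slpi, lower (-1.19 with either, adjusted p 0.0109 and 0.0354), and not Defb6 (0.0526 and 0.0613). With the description block Defb6 was not called in anti-IL1RAP against allogeneic isotype (0.0876).

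Over all genes, anti-IL1RAP against allogeneic isotype had 2204 calls, 1053 with the description number as a replicate block and 3664 in its own run. Anti-IL1RAP against syngeneic isotype had 166, with 674 by DESeq2, 106 with symbols of both runs, 299 with the title number as a replicate block, 2131 with only those groups and 505 in the run. Nintedanib against water had 1906, with 1190 without the filter, 3046 by DESeq2, 94 with only those groups or that run, 242 with and 333 without the lane note, and with 1024 higher and 1278 lower by the title block and 837 and 1156 by the description block. The contrast of treatment effects had 0, with 364 by DESeq2, 1 and 2 with the title and description blocks and 9 without the lane note. Leaving out each library gave 3580 to 4953 calls for allogeneic against syngeneic isotype, 1284 to 2168 for anti-IL1RAP against allogeneic isotype, 31 to 152 for anti-IL1RAP against syngeneic isotype, 782 to 2794 for nintedanib against water and 0 to 7 for the contrast. The cause was not tested. Depth limits Defb3 and Defb4 most, which had at most 65 and 17 reads in a library.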
